A study of Mus musculus with 4 samples.

Results

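Integrins are the receptors by which cells hold on to the proteins around them, and laminins are the large secreted proteins of basement membranes that many of them bind. The genes described here are those of the integrin α and β chains and of the laminin α, β and γ chains, chosen by symbol alone (Itga, Itgb, Lama, Lamb or Lamc followed by a chain name). They numbered 35 of the 28250 genes with a deposited expression value, with 16 integrin α chains, 8 integrin β chains, 5 laminin α chains, 3 laminin β chains and 3 laminin γ chains. Each integrin is a dimer of an α and a β chain, and each laminin is a trimer of an α, a β and a γ chain, so a change of one chain is read here beside the chains it pairs with. In mouse embryonic stem cells (ESCs) β1 integrins are the main adhesion receptors, and the laminin made of α1, β1 and γ1 and the laminin made of α5, β1 and γ1 are known basement membrane proteins of the early embryo.

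The cells were TBV2, ESCs of the 129/SvP strain that depend on feeder cells and were kept with LIF, the cytokine that holds ESCs undifferentiated. They received solvent for 24 h (2 libraries) or 5 µM MS-275 for 24 h (2 libraries), MS-275 being a drug that blocks class I histone deacetylases, and poly(A) RNA was sequenced. The control is called solvent because the sources name more than one vehicle. Both groups came from one line. The study used it in wild-type and EGFP-transgenic form, and which form was sequenced, and whether a remainder of feeder cells entered the RNA, is not given in the sources used here. The labels do not say that the replicates were separate cultures, so the p-values measure the spread between these libraries, which may be technical. In such bulk RNA, fewer cells of a type and less RNA per cell cannot be told apart.

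A set of 3 readouts of the same libraries were used. The first was the deposited expression value, a signal per gene with no unit. The others were counts of distinct alignment positions over the exons and over the introns of each gene on the mm9 genome. For a given number of exon positions the deposited value was lower in longer genes. Intron positions come mostly from RNA that is not yet spliced, and they are other reads than those over exons. A gene was called when limma's Benjamini-Hochberg adjusted p over all genes tested was under 0.05, and fold changes of values are on the log2(value + 0.005) scale. Each fit was made without and with the replicate number as a block, since headers of the deposited tables call replicate 1 of both conditions old. The error after a fold change of values is the SE of the fit with the block, and that after a fold change of exon positions is of the fit without it. For the values of the members the SE ran from 0.218 to 0.348 with the block and from 0.233 to 0.898 without it.

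The libraries differed in ways that touch these genes. The alignments numbered from 9785619 to 23467935, and of those filed under replicate 1 of both conditions 53.2% and 54.4% repeated a position, against 0% in replicate 2. Each library correlated better with the positions filed under the opposite replicate of the same group (r = 0.846 to 0.913 over 11123 genes, which are not independent replicates) than with its own (r = 0.765 to 0.871), so replicate numbers of values and of positions are not matched below. This touches neither the group means nor the pairing. The 10 ESC markers were present in every library, with summed values of 6.08 and 23.2 with solvent and 4.83 and 13.6 with MS-275. In the values with the block none of them rose while 4 fell, beside 21.0% and 6.46% of all genes. Over exons with the block 0 rose and 7 fell, beside 24.0% and 20.2% of all genes.

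Of the 35 genes 31 were tested, since Itgad, Itgax, Itgb6 and Itgb8 did not reach 0.001 in 2 libraries. Without the block, none of them was called in the values, with adjusted p from 0.146 to 0.995, where 0.00492% of all genes tested rose and 0% fell. When p was not adjusted, 4 members lay under 0.05 with a higher and 0 with a lower level, beside 14.6% and 2.77% of all genes. With 2 against 2 libraries an exact permutation test of a single value cannot give a p under 0.333. With the replicate block, 10 members rose and 2 fell (32.3% and 6.45% of those tested), where 21.0% of all genes rose and 6.46% fell. The share that fell was that of all genes, and neither share was tested against them. The 10 that rose were Itga8, Itga2b, Itgb3, Lamb3, Itga3, Itga7, Lama4, Lamb2, Itga2 and Lamc3, and the 2 that fell were Itga5 and Itgb7. Quantile normalization, which levels the libraries, turned the split of all genes with the block from 4277 higher and 1314 lower to 2936 and 2961, and that of the members to 6 and 3. Across 6 fits with the block (the values, 4 variants of their scaling or pseudocount, and exon positions), Itga3, Itga8, Itga2b, Itgb3, Lamb2 and Lamb3 rose and Itga5 fell in every one.

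The groups did not overlap for 12 members that were higher and 2 that were lower with MS-275 (38.7% and 6.45%), beside 32.3% and 12% of all genes, so that this count by itself set the members little apart. Over the members tested the median log2 fold change was 0.43, with 0.41 in replicate pair 1 and 0.33 in pair 2, and over all genes it was 0.20. Scaling by median ratio lowered the median of all genes to 0.13 and quantile normalization to -0.03. Quantile normalization gives all libraries the same distribution, so it takes out a general shift by design. Whether the upward shift of all genes was one of scale or of many genes that rose was not tested. The median of members was 0.34 and 0.19 under these scalings. The median of all genes is small beside the fold changes of the genes described first below.

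**Figure D1:**
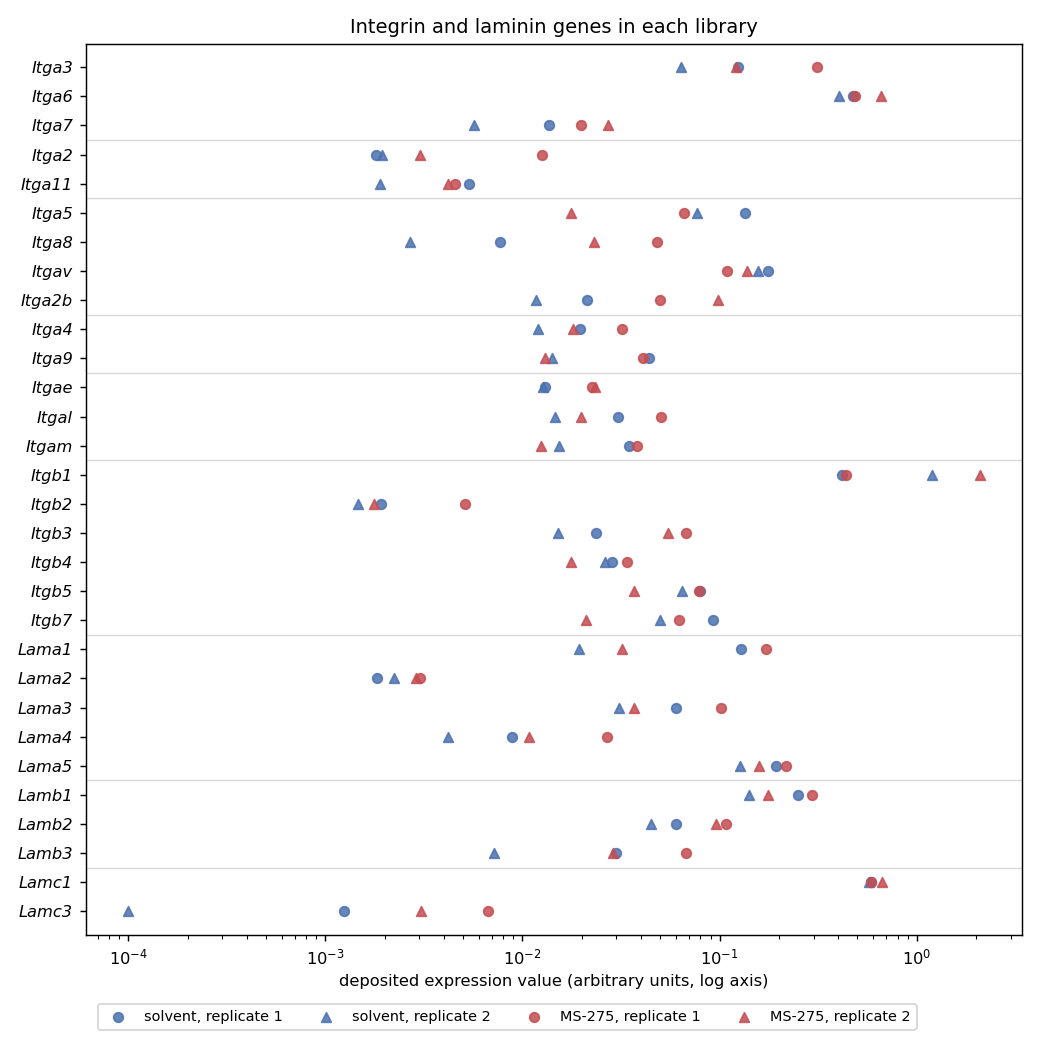
Deposited expression value (arbitrary units, log axis) of 30 of the 31 members tested, 1 row per gene grouped by role, with solvent in blue, MS-275 in red, circles for replicate 1 and triangles for replicate 2. The red points of Itga8, Itga2b and Itgb3 lie to the right of both blue points, and those of Itga5 to the left.

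Over exon positions some of these genes were called without the block as well. Without a block 7 members rose and 3 fell (22.6% and 9.68% of 31), where 12.4% and 7.68% of all genes did. With the block 11 rose and 3 fell (35.5% and 9.68%), beside 24.0% and 20.2% of all genes. Over introns 3 of 30 members rose and 0 fell without the block (10% and 0%, beside 7.69% and 4.54% of all genes), and 12 rose and 3 fell with it (40.0% and 10%, beside 22.2% and 20.6%). The median log2 fold change of members was 0.34 over exons and 0.56 over introns, where that of all genes was -0.01 and 0.00. With the block, all 12 members called in the values were called in the same direction over exons, and 9 of them in all 3 readouts. Without the block Itga2, Lamb2 and Lamb3 were not called over exons (limma adjusted p = 0.0647, 0.0976 and 0.108). The matching share of all genes was not worked out, and the readouts come from the same libraries.

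The intron counts without the block rested on single libraries. With solvent replicate 1 left out 8 members rose, with MS-275 replicate 1 left out 0 rose, and with solvent replicate 2 left out 3 fell. The exon counts moved less. Without MS-275 replicate 2 the members that rose numbered 4, while 1 member fell when either solvent replicate 2 or MS-275 replicate 1 was dropped.

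The start regions of 4 members, the 2 α chains with the largest rise in the values and the 2 chains that fell, are shown so that the genes on both sides can be placed. Each is 300 bases from RefSeq (GRCm38.p6), around the start that RefSeq gives, written 5′ to 3′ on the strand of the gene, with positions from an exact and single match to mm9. Of the Itga2b window 289 bases lie inside the span of the gene in the annotation used here, against 26 for Itga8, 22 for Itga5 and 50 for Itgb7. Capitals mark the GC box, a motif bound by Sp1-like factors (GGGCGG or its complement CCGCCC, both strands searched).
Itga8, chr2:12223522-12223821, minus strand: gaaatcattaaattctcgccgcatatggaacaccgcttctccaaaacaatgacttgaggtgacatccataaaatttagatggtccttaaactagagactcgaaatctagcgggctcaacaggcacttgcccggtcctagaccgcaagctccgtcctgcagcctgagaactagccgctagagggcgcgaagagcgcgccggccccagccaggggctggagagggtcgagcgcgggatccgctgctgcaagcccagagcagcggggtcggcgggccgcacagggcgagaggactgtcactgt
Itga2b, chr11:102331148-102331447, minus strand: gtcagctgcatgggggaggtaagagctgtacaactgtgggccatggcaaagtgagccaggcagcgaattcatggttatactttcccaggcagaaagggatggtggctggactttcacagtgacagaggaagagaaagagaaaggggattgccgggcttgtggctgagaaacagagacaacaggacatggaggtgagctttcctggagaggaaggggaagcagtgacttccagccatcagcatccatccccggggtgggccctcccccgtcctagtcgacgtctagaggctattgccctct
Itga5, chr15:103197173-103197472, minus strand: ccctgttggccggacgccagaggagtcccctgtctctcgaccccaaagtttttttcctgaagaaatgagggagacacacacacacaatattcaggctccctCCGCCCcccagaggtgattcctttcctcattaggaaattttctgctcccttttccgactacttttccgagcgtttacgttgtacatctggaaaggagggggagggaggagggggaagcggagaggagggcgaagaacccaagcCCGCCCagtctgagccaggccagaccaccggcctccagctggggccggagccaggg
Itgb7, chr15:102062317-102062616, minus strand: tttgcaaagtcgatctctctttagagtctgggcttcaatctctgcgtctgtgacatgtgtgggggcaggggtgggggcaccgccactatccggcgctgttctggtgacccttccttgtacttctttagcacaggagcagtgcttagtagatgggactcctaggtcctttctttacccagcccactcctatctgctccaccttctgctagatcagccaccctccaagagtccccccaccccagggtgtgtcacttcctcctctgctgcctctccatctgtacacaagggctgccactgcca

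Such windows were held for 21 of the 35 members, 24 windows in all. The Itga8 window held 23 CpG dinucleotides and that of Itga2b held 6. The window of Itga5 held 13 and that of Itgb7 held 5. The median was 5.5 over the 8 windows of members that rose in the values with the block. It was 12.5 over the 14 windows of members not called, and 7.0 over all windows. Of the members' windows 50% held a GC box, and of all 32851 windows 35.7% did. The share was 37.5% for the members that rose and 57.1% for those not called. These differences were not tested. TATAAA, searched on both strands, stood in 0 of the members' windows and in 13.6% of all windows. A match is a run of letters and not a measured binding site.

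The integrin α chains that bind the RGD motif, found in fibronectin, vitronectin and nephronectin, held the largest rise and the largest fall of the members in the deposited values. Itga8, whose product pairs with β1 and binds nephronectin, had values of 0.00773 and 0.00268 with solvent and 0.0484 and 0.0232 with MS-275 (replicates 1 and 2). The treated libraries were 6.26-fold and 8.66-fold above the solvent library of their pair, and the groups did not overlap. This was a log2 fold change of 1.97 ± 0.31 (SE with the block, 0.63 without it, n = 2 and 2), with limma adjusted p = 0.146 without the block and 0.000234 with it, and between 1.56e-06 and 0.0012 over the 6 fits with the block. Exon positions numbered 18 and 29 with solvent and 124 and 284 with MS-275, or 2.97 ± 0.50 on the log2 scale (adjusted p = 0.00931 without the block). This call held when any one library was left out. Intron positions rose as well, from 12 and 6 to 44 and 30, at 1.93 on the log2 scale (adjusted p = 0.0558 without the block and 0.00167 with it). The gene lies on the minus strand of chromosome 2 (12028259-12223547).

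Itga2b encodes αIIb, which pairs with β3 alone to form the fibrinogen receptor of platelets. Its values were 0.0212 and 0.0118 with solvent and 0.0497 and 0.0979 with MS-275. Both treated libraries were above both solvent libraries, by 2.34-fold and 8.31-fold within the pairs, at a log2 fold change of 1.84 ± 0.35 (limma adjusted p = 0.166 without the block, 0.00109 with it, 5.37e-05 to 0.00482 over the fits with the block). Over exons it rose from 65 and 56 positions to 197 and 159 (log2 fold change 1.45, adjusted p = 0.0236 without the block). Over introns it rose from 51 and 28 to 182 and 142 (1.98, adjusted p = 0.0166 without the block), one of 3 members called over introns without the block. The exon call was lost, with adjusted p up to 0.0569, when solvent replicate 2 or MS-275 replicate 1 was left out.

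Its partner Itgb3, whose product also pairs with αv in the vitronectin receptor, moved with it. The values were 0.0237 and 0.0152 with solvent and 0.0675 and 0.0550 with MS-275, with no overlap of the groups. On the log2 scale the rise was 1.46 ± 0.29 (limma adjusted p = 0.238 without the block, 0.00156 with it, 6.76e-05 to 0.00765 over the fits with the block). Exon positions went from 143 and 88 to 274 and 339, an increase of 1.36 on the log2 scale (adjusted p = 0.0144 without the block). Without solvent replicate 2 the exon call was lost (adjusted p = 0.0953). Intron positions rose with the block, from 31 and 17 to 57 and 38 (adjusted p = 0.04). Both genes lie on chromosome 11, Itga2b on the minus strand (102314611-102331436) and Itgb3 on the plus strand (104469370-104531790).

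Platelet and leukocyte markers were looked at beside this pair. Of 11 tested, 3 rose and 2 fell in the values with the block, where 21.0% and 6.46% of all genes did. Lcp1, Coro1a and Tyrobp rose, while Cd3e and Laptm5 fell. The summed values over 15 listed genes, to which Laptm5 and Cd68 gave the most with solvent, were 0.335 to 0.452 with solvent and 0.327 to 0.426 with MS-275. Ptprc, Lyz2, Gp9, Pf4 and Tyrobp were listed at 0 in both solvent libraries. With MS-275 the values were 0.00232 and 0.00111 for Ptprc, 0.00433 and 0.00095 for Lyz2, 0 and 0.00171 for Pf4, and 0.00163 and 0.00889 for Tyrobp (limma adjusted p = 0.0118 with the block). Gp9, a defining platelet gene, was listed at 0 in all 4 libraries, but other platelet genes were not. Gp1ba was at 0.01642 and 0.01591 with solvent and 0.01997 and 0.02093 with MS-275. It was not called in the values or over exons. Ppbp was at 0 and 0.00947 with solvent and 0.0017 and 0.0199 with MS-275. With the block Ppbp was not called in the values (limma adjusted p = 0.103) but rose over exons (1.45, adjusted p = 0.0286). The part of such cells in the changes of Itga2b and Itgb3 was not tested.

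Itga5, the α chain of the main fibronectin receptor α5β1, moved the other way. Values of 0.135 and 0.0771 with solvent stood against 0.0663 and 0.0177 with MS-275, and the groups did not overlap. On the log2 scale the change was -1.41 ± 0.28 (limma adjusted p = 0.288 without the block, 0.00146 with it, 9.19e-06 to 0.00508 over the fits with the block). Exon positions fell from 590 and 593 to 135 and 318, by 1.56 on the log2 scale (adjusted p = 0.0113 without the block), and this call held when any one library was left out. Intron positions fell from 154 and 76 to 51 and 51 (-1.17, adjusted p = 0.0757 without the block and 0.00162 with it). The gene lies on the minus strand of chromosome 15 (103174720-103197194).

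Itgav, the αv chain, was closer to its solvent level. Its values were 0.176 and 0.156 with solvent and 0.110 and 0.137 with MS-275, which do not overlap. The log2 fold change of -0.42 ± 0.23 was not called (limma adjusted p = 0.183 with the block, 0.00248 to 0.197 over the fits with the block). Over exons it was lower, with 844 and 753 positions against 468 and 668 (-0.58, adjusted p = 0.0466 without the block), a call that was lost without either solvent library or without MS-275 replicate 1. Over introns the difference was -0.34 (adjusted p = 0.376 with the block). Of the β chains that pair with αv, Itgb3 rose as described, while Itgb5, with values of 0.0794 and 0.0642 against 0.0784 and 0.0368, was not called in any readout. Itgb6 and Itgb8 were at no more than 0.00115 in every library and were not tested in the values.

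The laminin-binding α chains were higher for 2 of 3 members. Itga3 encodes a receptor for the laminins with α3 and α5 chains. It had values of 0.124 and 0.0635 with solvent and 0.311 and 0.121 with MS-275, rising within both pairs by 2.51-fold and 1.90-fold although MS-275 replicate 2 did not exceed solvent replicate 1. Its rise was 1.09 ± 0.23 on the log2 scale (limma adjusted p = 0.333 without the block, 0.00222 with it, 8.19e-05 to 0.00515 over the fits with the block). Exon positions rose from 406 and 479 to 618 and 1212 (0.92, adjusted p = 0.0424 without the block), a call that was lost without solvent replicate 1 or MS-275 replicate 2. Intron positions rose more evenly, from 93 and 98 to 305 and 274 (1.54, adjusted p = 0.0212 without the block).

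Itga7, a laminin receptor best known from skeletal muscle, had values of 0.0136 and 0.00569 with solvent and 0.0198 and 0.0272 with MS-275. The groups did not overlap, but the pairs differed, with 0.41 and 1.59 on the log2 scale. The log2 fold change was 1.0 ± 0.34 (limma adjusted p = 0.0381 with the block), and 4 of 6 fits with the block called it. The exons gave a larger rise, from 26 and 30 to 94 and 93 positions (1.64, adjusted p = 0.0206 without the block), which was not called without solvent replicate 1 or without MS-275 replicate 1 (adjusted p up to 0.0747). Introns rose from 15 and 10 to 49 and 40 (adjusted p = 0.0018 with the block).

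Itga6, the most abundant of the laminin receptors in ESCs, was not called. Values of 0.478 and 0.406 with solvent and 0.488 and 0.663 with MS-275 gave 0.37 ± 0.26 (limma adjusted p = 0.322 with the block). Exons gave 0.16 and introns 0.21 on the log2 scale, neither called with or without the block. Its β4 partner in the hemidesmosome, Itgb4, had values of 0.0283 and 0.0263 against 0.0339 and 0.0177 and was not called in any readout.

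Of the collagen-binding α chains, Itga2 had values near the lower limit, 0.0018 and 0.00195 with solvent and 0.0126 and 0.00304 with MS-275. It was called with the block (0.79 ± 0.28, limma adjusted p = 0.0496), but in only 3 of 6 such fits, and exon positions were few (9 and 3 against 17 and 36). Itga11 was at 0.0019 to 0.00538 in all libraries and was not called in the values or over exons, but its intron positions rose with the block from 18 and 7 to 53 and 24 (1.59, adjusted p = 0.00478).

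**Figure D2:**
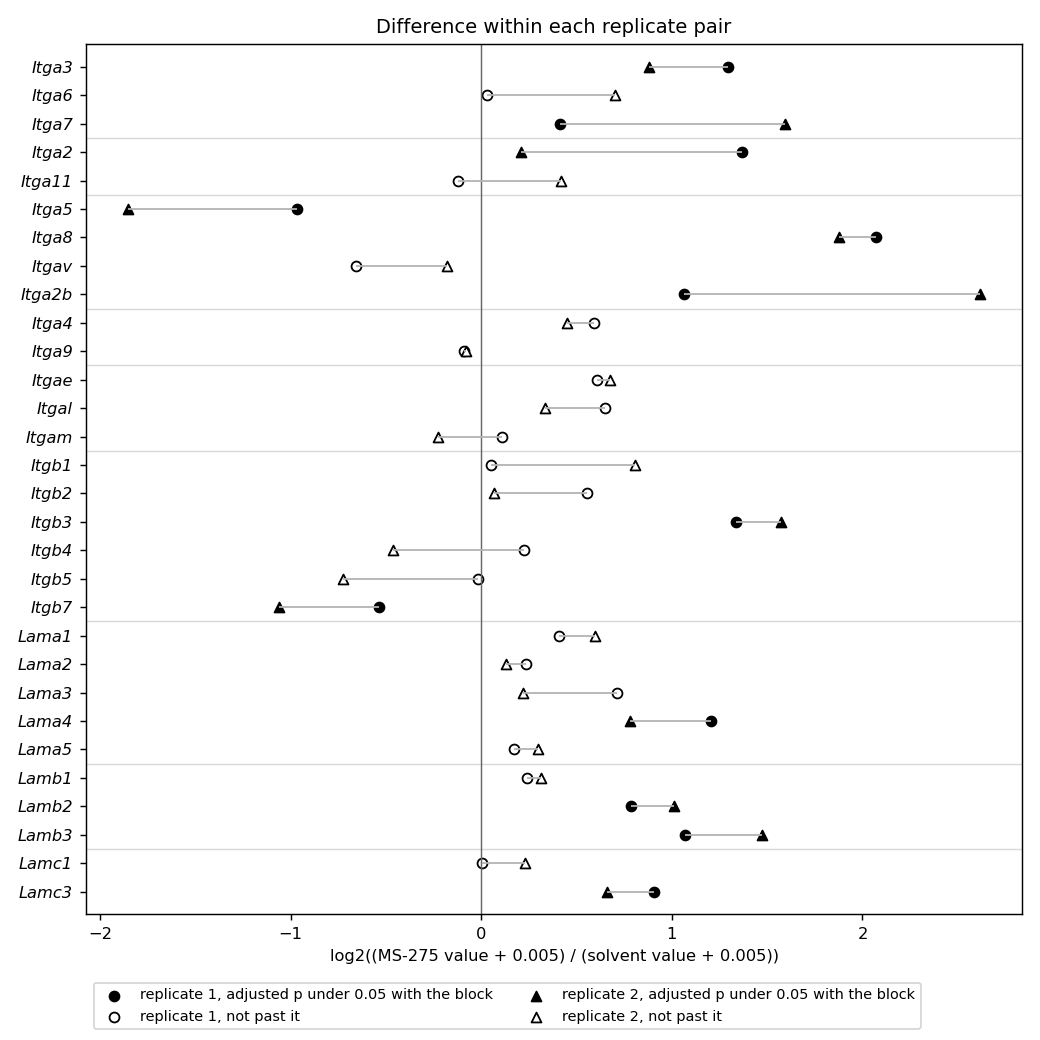
Difference of log2(value + 0.005) between MS-275 and solvent within replicate pair 1 (circles) and pair 2 (triangles) for 30 of the 31 members tested, filled where the fit with the replicate block gave an adjusted p under 0.05. Both pairs lie on the same side of 0 for all 12 filled genes, and the pairs of Itga7, Itga2 and Itga2b are far apart.

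Itgb1 encodes the β1 chain, shared by α3, α5, α6, α7, α8 and αv among others, and its readouts disagreed. The values were 0.420 and 1.19 with solvent and 0.436 and 2.09 with MS-275, so that replicate 2 was higher than replicate 1 in both groups and the groups overlapped. The log2 fold change of 0.43 ± 0.30, with an SE of 0.90 without the block, was not called (limma adjusted p = 0.314 with the block). Exon positions, 1785 and 1437 against 1354 and 1684, gave -0.16 and were not called either. Over introns Itgb1 fell with the block, from 414 and 182 to 143 and 186 positions (-0.85, adjusted p = 0.00413), and was not called without it (adjusted p = 0.141). The β1 chain was therefore not shown to rise with the α chains that use it.

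Itgb7 pairs with α4 and αE in lymphocyte homing receptors. Its values were 0.0926 and 0.0496 with solvent and 0.0622 and 0.0211 with MS-275, lower within both pairs although the groups overlapped. The log2 fold change was -0.80 ± 0.27 (limma adjusted p = 0.616 without the block, 0.0395 with it, 0.00109 to 0.0675 over the fits with the block, of which 5 of 6 called it). Exon positions fell from 236 and 220 to 69 and 167 (-1.12, adjusted p = 0.0468 without the block), a call lost without solvent replicate 2 or MS-275 replicate 1. Intron positions fell from 130 and 74 to 43 and 49 (adjusted p = 0.0022 with the block). The gene lies on the minus strand of chromosome 15 (102046426-102062366), the chromosome of Itga5.

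The α partners of β7 did not fall with it. Itga4 had values of 0.0195 and 0.0119 with solvent and 0.0319 and 0.0181 with MS-275 and was not called in any readout (limma adjusted p = 0.228 in the values with the block). Itgae had 0.0131 and 0.0127 against 0.0225 and 0.0233, with no overlap, and was called over exons with the block only (0.58, adjusted p = 0.0461). The other leukocyte chains were low. Itgal, Itgam and Itgb2 ranged from 0.00146 to 0.0506 and were not called in the values, Itgal and Itgb2 being higher over introns with the block (adjusted p = 0.0274 and 0.00553). Itgad and Itgax were listed at 0 in both solvent libraries and at no more than 0.00026 with MS-275. Itga9 was at 0.0131 to 0.0441 and was not called in any readout.

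Among the laminins, the chains that rose were not those that ESCs use most. Lamb3, the β3 chain of the epidermal laminin, had values of 0.0297 and 0.00719 with solvent and 0.0677 and 0.0289 with MS-275, rising 2.28-fold and 4.01-fold within the pairs while the groups overlapped. On the log2 scale Lamb3 rose by 1.27 ± 0.30 (limma adjusted p = 0.449 without the block, 0.00562 with it, 0.000685 to 0.0388 over the fits with the block). Over exons, 59 and 117 positions became 123 and 286 (1.13, adjusted p = 0.108 without the block). Introns gave 1.29 with the block and just missed the threshold (adjusted p = 0.0516).

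Lama3, the α3 chain of the same laminin, did not follow in the values. It had 0.0600 and 0.0310 with solvent and 0.102 and 0.0369 with MS-275 (0.47 ± 0.27, limma adjusted p = 0.22 with the block), but its intron positions rose with the block from 65 and 54 to 137 and 140 (1.15, adjusted p = 0.00106). Of 9 keratinocyte and epithelial markers tested beside these chains, 4 rose and 0 fell in the values with the block (21.0% and 6.46% of all genes). Over exons with the block, where Krt14 was not tested, 4 rose and 2 fell (24.0% and 20.2% of all genes). Krt5, Krt8, Krt18 and Trp63 rose in both, and Dst and Cd151 fell over exons (-0.35 and -0.54, limma adjusted p = 0.0069 and 0.0131). The summed values, to which Dst, Epcam and Cd151 gave the most, were 1.16 and 1.17 with solvent and 1.16 and 1.13 with MS-275. The part of such cells in the change of Lamb3 was not tested.

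Lamb2, the β2 chain known from the neuromuscular synapse and the kidney filter, had values of 0.0604 and 0.0451 with solvent and 0.108 and 0.0960 with MS-275, without overlap. It rose by 0.90 ± 0.25 on the log2 scale (limma adjusted p = 0.354 without the block, 0.0126 with it, 0.0045 to 0.0295 over the fits with the block). Exon positions of 243 and 246 became 297 and 550 (adjusted p = 0.0976 without the block). Intron positions of 18 and 10 against 29 and 16 were not called.

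Lama4, the α4 chain of vessel wall laminins, had values of 0.00882 and 0.00417 with solvent and 0.0269 and 0.0108 with MS-275, which do not overlap. It rose by 0.99 ± 0.30 (limma adjusted p = 0.0224 with the block, 0.000336 to 0.277 over the fits with the block, of which 5 of 6 called it). Its exon positions rose from 38 and 40 to 83 and 159 (1.5, adjusted p = 0.0276 without the block, a call lost without either solvent library or MS-275 replicate 2). Its intron positions rose from 10 and 9 to 45 and 33 (adjusted p = 0.00171 with the block).

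Lamc3, the γ3 chain, was close to absent with solvent. Its values were 0.00125 and 0.0001 with solvent and 0.00671 and 0.00305 with MS-275, and its exon positions were 1 and 6 against 26 and 41. It was called over exons and over introns without the block (adjusted p = 0.0223 and 0.046) and in the values with it (0.78 ± 0.22, limma adjusted p = 0.0169). At values this low the fold change depends on the pseudocount, the scaling and the readout. It ran from 0.264 to 3.10 over the 6 fits with the block, of which 5 called it. Without either MS-275 library Lamc3 had too few exon positions to be tested over exons.

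The chains of the main ESC laminins showed no call in the values or over exons. Lamc1 had values of 0.587 and 0.572 with solvent and 0.589 and 0.670 with MS-275 (0.12 ± 0.26, limma adjusted p = 0.782 with the block). Lamb1 had 0.249 and 0.141 against 0.296 and 0.177 (0.28 ± 0.22, adjusted p = 0.371 with the block). Lama5 had 0.192 and 0.128 against 0.217 and 0.158 (0.23 ± 0.22, adjusted p = 0.458 with the block), and over exons it was at -0.08. Lama1 had 0.129 and 0.0194 against 0.172 and 0.0319 (0.50 ± 0.25 with the block and an SE of 0.90 without it, adjusted p = 0.156 with the block). Within each group the replicates of Lama1 lay farther apart than the groups did, so that a change of this size in Lama1 was not separable from the replicate offset without the block. Lama2 was low, at 0.00182 to 0.00303, and was called over introns alone (adjusted p = 0.0149 with the block).

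Extraembryonic endoderm, which makes basement membrane, was looked at through its markers beside these chains. Of 15 tested, 5 rose and 1 fell in the values with the block, beside 21.0% and 6.46% of all genes. Over exons with the block, where 24.0% and 20.2% of all genes did, 6 of the markers rose and 2 fell. Foxa2 and Apoa1 were not tested over exons. Their summed values were 0.714 and 0.496 with solvent and 0.866 and 0.579 with MS-275, and Ttr was listed at 0 in both solvent libraries. Of 15 fibroblast markers, which feeder cells would carry, 6 rose and 0 fell in the values with the block (40% and 0%). Over exons with the block, where Twist2 was not tested, 6 rose and 3 fell, Col3a1, Prrx1 and Dcn being those that were lower. The shares of all genes were those given for the endoderm markers, and the share that fell over exons was near that of all genes. The summed values of the fibroblast markers were 0.793 and 1.23 with solvent and 1.15 and 1.79 with MS-275, and none was at 0 in both solvent libraries. The part of either cell type in the changes of integrin and laminin genes was not tested.

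**Figure D3:**
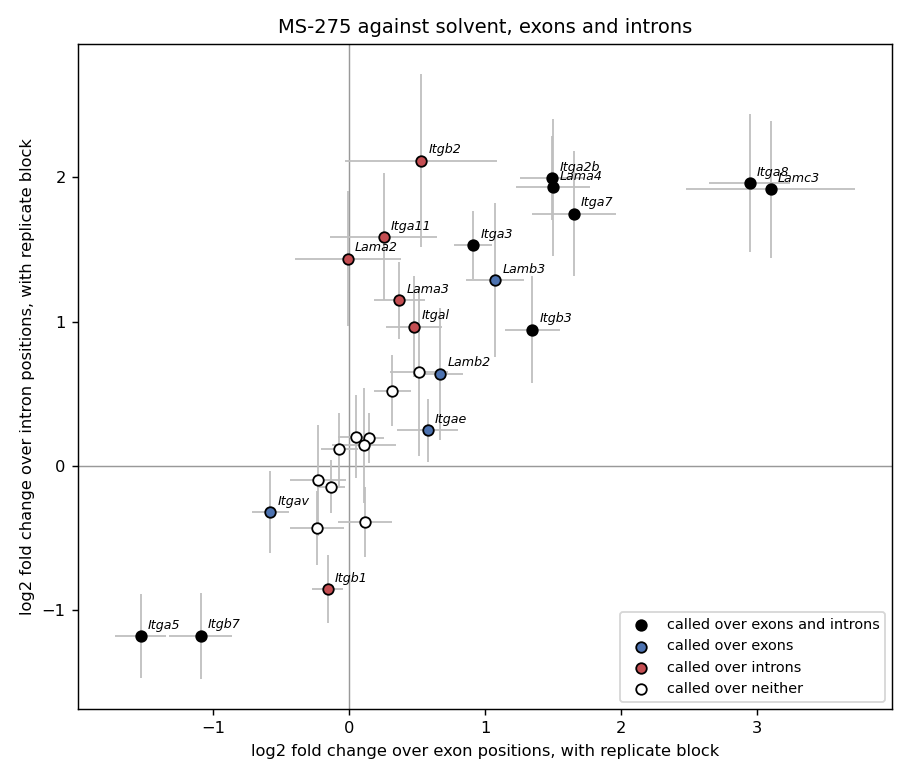
Log2 fold change with MS-275 over exon positions (horizontal axis) and intron positions (vertical axis) of 29 of the 30 members counted in both, from the fits with the replicate block, with bars of 1 SE. Black points were called in both, blue over exons, red over introns and white in neither, and the black points lie in the upper right and lower left corners.

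Exons and introns were compared over the 30 members counted in both. Of these 27 had the same sign of change, or 90%, beside 83.5% of the 12799 genes counted in both. With the block 9 were called in both in the same direction and 0 in opposite directions, or 30% and 0%, beside 31.6% and 0.227% of these genes, so that neither share set the members far apart. The 9 were Itga3, Itga7, Itga8, Itga2b, Itgb3, Lama4 and Lamc3, which rose, and Itga5 and Itgb7, which fell. Exon and intron positions come from the same libraries, share their depth and their group labels, and do not carry strand, so reads of an antisense transcript inside an intron would be counted with the gene.

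Levels of different genes were compared as distinct exon positions per kilobase of exon and per 1000000 positions. With solvent the highest was Lamc1 (33.2 and 43.4), then Itgb1 (39.9 and 36), and these overlapped. Itga6 (17.5 and 24.2), Itga5 (12.3 and 13.8), Lama5 (10.9 and 11.5) and Lamb1 (7.44 and 9.95) followed, none of them overlapping the one before it. Itgb7 (7.84 and 8.20) lay within the range of Lamb1. Counting every alignment in place of distinct positions kept the same 6 genes at the top, with Itgb1 first. By deposited value 5 of these 6 were among the highest, with Itgav in place of Itga5.

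With MS-275 the order changed around Itga5. Its level was 3.38 and 6.65 with MS-275, while Itga3, at 6.48 and 8.57 with solvent, stood at 11.9 and 19.4. With solvent Itga5 lay above Itga3 in both libraries, and with MS-275 below it in both, with no overlap either way. In the deposited values the order within each library was the same. With solvent, however, the values of Itga5 (0.135 and 0.0771) and of Itga3 (0.124 and 0.0635) overlapped. Itga8 went from 0.238 and 0.429 to 1.97 and 3.77, which overlapped the range of Itga5 with MS-275. Itgb3 went from 2.23 and 1.54 to 5.14 and 5.31, and Itga2b from 1.09 and 1.05 to 3.96 and 2.67. Lamc1 (30.1 and 46.8), Itgb1 (36.4 and 37.8) and Itga6 (22.4 and 28.1) stayed highest.

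**Figure D4:**
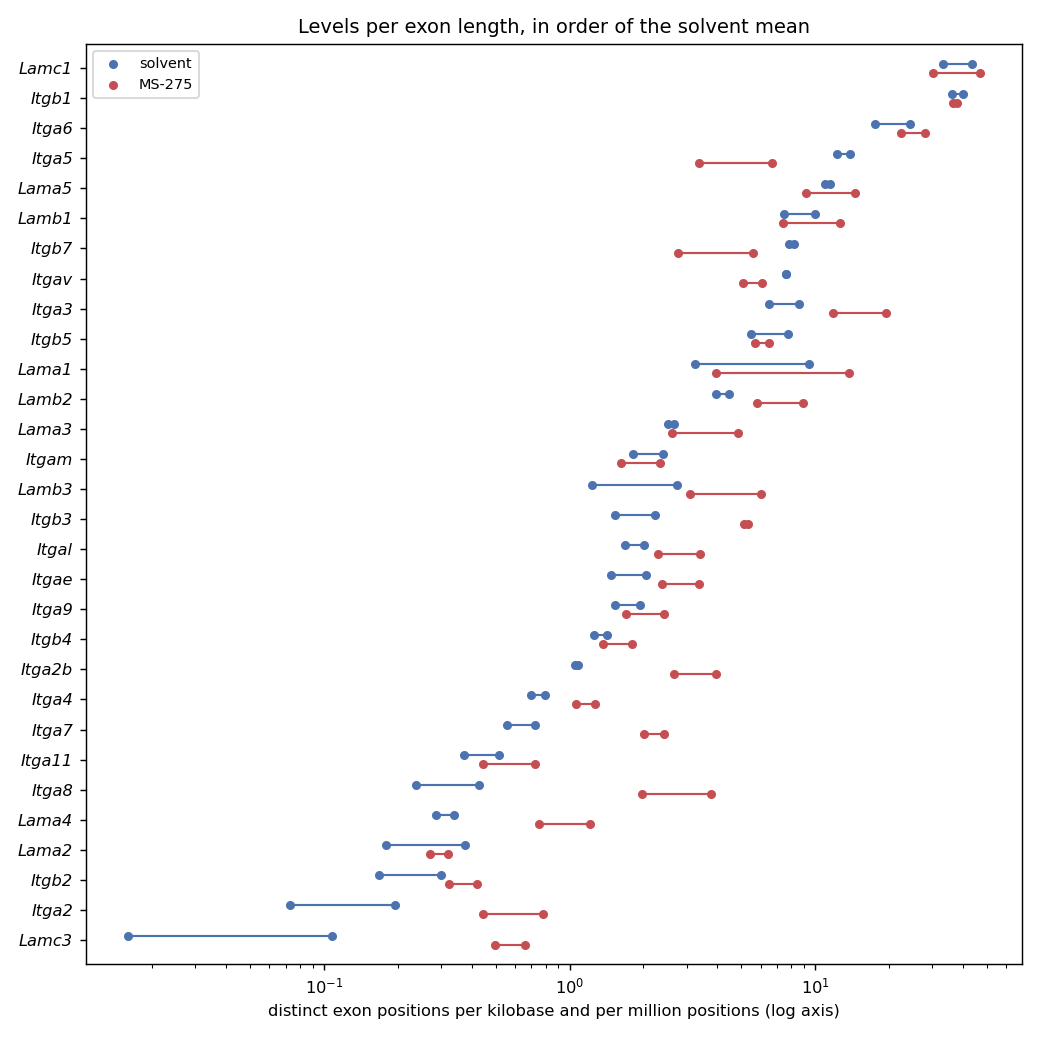
Distinct exon positions per kilobase of exon and per 1000000 positions (log axis) for 30 of the 31 members tested, in order of the mean with solvent, with the 2 solvent libraries in blue and the 2 MS-275 libraries in red joined by a line. Lamc1, Itgb1 and Itga6 lead in both groups, and the red points of Itga5 and Itgb7 lie to the left of the blue ones.

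Genes that act with integrins inside the cell were taken from a list of 30 focal adhesion and integrin activation genes. With the block 6 rose and 2 fell in the values, beside 21.0% and 6.46% of all genes. Over exons, where Ilk was not tested, 6 rose and 6 fell with the block, beside 24.0% and 20.2%. The largest rise was that of Nedd9, a docking protein of the Cas family, from 0.00338 and 0.00322 to 0.0867 and 0.0559 (3.17 on the log2 scale, limma adjusted p = 6.07e-06 with the block). Pxn, which encodes the adaptor paxillin, rose by 1.04 (adjusted p = 0.00459 with the block). Parvb, a β-parvin that links integrin-linked kinase to actin, and Tns3, a tensin, fell by 1.44 and 1.37 (adjusted p = 0.000596 and 0.000779 with the block). The talins Tln1 and Tln2 and the kindlins Fermt1 and Fermt2, which activate integrins by binding the β tail, were not called with the block in any readout. The kindlin Fermt3 was not called in the values or over exons, and rose over introns by 1.39 on the log2 scale (adjusted p = 0.00265 with the block).

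Of 20 basement membrane genes that partner laminins, 2 rose and 1 fell in the values with the block, and 7 rose and 6 fell over exons, beside the same shares of all genes as for the focal adhesion list. Npnt, which encodes nephronectin, the ligand of α8β1, had values of 0.0427 and 0.0106 with solvent and 0.0749 and 0.0524 with MS-275 (1.31, limma adjusted p = 0.00599 with the block). Frem2, of the Fras family of basement membrane proteins, rose by 0.84 (adjusted p = 0.0282 with the block). Hspg2, the proteoglycan perlecan, fell by 0.90 (adjusted p = 0.0111 with the block). The nidogens Nid1 and Nid2, which bridge laminin to collagen IV, were at -0.54 and -0.35 and not called in the values. With the block Nid1 was lower over exons (-0.66, adjusted p = 0.000175) and Nid2 over introns (-0.81, adjusted p = 0.000593). In the values Col4a1 and Col4a2 were at 0.26 and 0.23, and no collagen IV chain was called. Over exons with the block Col4a3, Col4a4, Col4a5 and Col4a6 rose, by 1.66, 2.78, 0.98 and 1.84 (limma adjusted p = 0.0297, 0.00528, 0.00526 and 0.00265). Col4a1 and Col4a2 were not called there. Col4a4, Col4a5 and Col4a6 rose over introns with the block as well. Values of Col4a3, Col4a4 and Col4a6 were low, at no more than 0.00579 in any library.

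Of 19 other integrin ligands, 4 rose and 0 fell in the values with the block, beside 21.0% and 6.46% of all genes. Over exons with the block, where Vtn and Icam2 were not tested, 4 rose and 4 fell, beside 24.0% and 20.2%, Fn1, Vcam1, Cdh1 and Vwf being lower. Ctgf, a matricellular ligand, rose from 0.0668 and 0.265 to 0.414 and 1.61 (2.57, limma adjusted p = 2.38e-06 with the block), and Fbn1, the fibrillin of microfibrils, rose by 1.37 (adjusted p = 0.00379 with the block). Fn1, the fibronectin bound by α5β1, had values of 0.872 and 1.73 with solvent and 0.709 and 0.794 with MS-275 (-0.71, adjusted p = 0.114 with the block). Over exons Fn1 fell by 0.54 (adjusted p = 0.000205 with the block) and over introns by 1.14. These genes, the nidogens, the collagen IV chains, the talins and the kindlins were named for their roles after their values had been seen. The α5 chain and fibronectin were both lower over exons and introns, and the α8 chain and nephronectin were both higher over exons, where Npnt gave 1.28 (adjusted p = 0.000157 with the block). Over introns Npnt was not called (0.50, adjusted p = 0.309 with the block). Other receptor chains and ligands moved apart over exons with the block. Itga2b and its partner Itgb3 rose (1.49 and 1.35), while the ligands Fn1 and Vwf fell (-0.54 and -0.74). Itgae rose (0.58), while the ligand Cdh1 fell (-0.28, limma adjusted p = 0.0379). How often a receptor and its ligand move together among other genes was not tested.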

How the data were processed

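The 4 libraries were grouped by their titles, and the library called a duplicate was taken as replicate 2. As deposited by the authors, the values are a normalized expression signal per gene made with Genomatix from reads mapped to mm9, and the formula and aligner are not given in the sources used here. Of the deposited alignments only the positions were used. Tables of shorter gene lists and of the authors' own ratios between conditions were not used.

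Genes at 0.001 or more in at least 2 libraries (20336) were fitted with limma 3.58.1 (R 4.3.3) on log2(value + 0.005) with a trend, without a replicate block and with it. Pairing comes from the table headers; deviations from the group means correlated at 0.764 between libraries of the same number. Distinct positions (midpoint of each read, without regard to strand) were counted with Python 3.11.15 over exons and introns of exactly 1 GENCODE M1 gene and fitted with limma-voom and TMM scaling, at a minimum of 10 in 2 libraries. Steps were tested on simulated data.

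Members, roles and gene lists were chosen with earlier results of these data known. Values per library are printed for members called, the 6 highest, and their partners, and for related lists the largest changes called with the block. Alternatives were other pseudocounts, filters and scalings, no trend, and each library left out. The settings for exon counts were added after the data had been seen. A single member, counted in the totals, is not reported here by itself.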

Additional observations from a re-analysis of the deposited data

Results flagged for a closer look

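A pair of integrin genes of the annotation, Itga1 and Itga10, had no row among the deposited values and so lie outside the 35 genes described, but the alignments hold positions for both. Itga1, a collagen-binding α chain, had 20 and 14 exon positions with solvent and 47 and 61 with MS-275, a log2 fold change of 1.57 ± 0.41 (SE, limma-voom adjusted p = 0.0354 without the block and 0.00255 with it). Its intron positions, 39 and 23 against 23 and 57, were not called. Itga10, another collagen-binding α chain, had 34 and 44 exon positions with solvent and 52 and 62 with MS-275, a log2 fold change of 0.48 ± 0.36 that was not called (limma-voom adjusted p = 0.389). Both were higher in the 2 MS-275 libraries than in the solvent libraries.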

How the results depend on the processing

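With the replicate block the members that rose went from 0 to 10 and those that fell from 0 to 2. Block fits with quantile normalization, median-ratio scaling, pseudocount 0.001 and pseudocount 0.02 gave 6, 10, 8 and 9 that rose, and 3, 2, 2 and 1 that fell. Exon positions gave 7 and 3, and 11 and 3 with the block. Over introns the block moved 3 and 0 to 12 and 3. Leaving out each library gave 0 to 8 that rose and 0 to 3 that fell over introns, 4 to 8 and 1 to 3 over exons, and 0 in the values. The median of members, 0.43, was 0.50 and 0.32 at pseudocounts of 0.001 and 0.02, 0.31 with no filter, 0.19 with quantile normalization, 0.34 with median-ratio scaling, 0.34 over exons and 0.32 over exons with the block, the scalings and pseudocounts giving the same medians with the block. Without a library it ranged from 0.17 to 0.66. Reversals met genes not called in the values. Over exons, without and with the block, Itgb1 was at -0.16 and -0.16, Itgb4 at 0.11 and 0.11, Lama5 at -0.075 and -0.074, and Lamc1 at -0.13 and -0.14. With a library left out the ranges that crossed 0 were -0.69 to 1.56 for Itgb1, -0.51 to 0.27 for Itgb4, -0.87 to 0.13 for Itgb5, -0.73 to 1.73 for Lama1, -0.21 to 1.14 for Lama3, -0.053 to 0.52 for Lama5 and -0.12 to 0.68 for Lamb1. Of 430 values of single members under an alternative, 18 reversed, 77 newly passed the threshold and 335 did not change side. The cause was not tested. A fit that leaves out a library holds 1 library in a group, assumed to vary like the other, and carries the replicate offset. The block fits rest on 1 residual degree of freedom per gene and on limma's pooled spread. The fits of positions rest on the spread between the same libraries, and depth behind a single deposited value is unknown.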
